A study of Homo sapiens with 79 samples.

Results

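RNA recovered with ADAR was compared with input RNA in K562, an established human erythroleukemia cell line. The libraries were chosen by their labels, as the 3 ADAR fRIP libraries and the 3 libraries of input set 1, and they made up 6 of the 79 libraries of the series. In fRIP, formaldehyde fixes RNA to protein in intact cells, the cells are lysed by sonication, and the RNA pulled down with an antibody against 1 protein is sequenced beside lysate RNA. The series covered 24 proteins, and its other libraries enter here as the other 6 input libraries, the 9 libraries of HNRNPH1, HNRNPU and HUR fRIP, and the fRIP libraries of the remaining proteins. Both groups were K562 cells of the same labelled passage range with no genetic change in the labels, cross-linked in the same way. ADAR fRIP received an antibody against ADAR, and input received none. The extraction protocol in the labels, shared by all 79 libraries, names a HUR antibody, whereas the antibody listed for the ADAR libraries is a different one from that listed for HUR fRIP. No pulldown with a control antibody was analysed here, so RNA that stays on the beads regardless of the antibody cannot be told apart from RNA bound by ADAR. The sources do not say which input set was made beside ADAR fRIP, and all 9 input libraries served as a check. The study describes replicate fRIP libraries as biological, made from separate lysates on separate days, while the labels do not say from what the input libraries of a set were made.

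ADAR converts adenosine to inosine in double-stranded RNA, a change that the cell reads as guanosine. Most editing in human cells lies in Alu elements, short interspersed repeats that descend from 7SL RNA, the RNA of the signal recognition particle. An mRNA or intron that holds an Alu element and a second one in the opposite orientation can fold back on itself into the long double-stranded RNA that ADAR recognizes. ADAR also edits a few codons in mRNAs such as NEIL1 and AZIN1, and its loss lets cellular double-stranded RNA reach the sensors of innate immunity.

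Sequence that transcripts share with Alu elements was found by letters alone. The 14-mers of 7SL RNA (RN7SL2) that occur at least 500 times on chromosome 19 of the reference, 63 of 284, were looked up on both strands of each transcript, and hits within 300 bases on 1 strand were joined to 1 match when at least 3 of the 14-mers were present. Such matches are called 7SL-like here, sense when they read as 7SL RNA and antisense when they read as its reverse complement. A gene was classed by its leading transcript, the isoform with the highest FPKM (fragments scaled to transcript length and library size) in input set 1. The 14-mer most repeated there was TGCACTCCAGCCTG, and its reverse complement is CAGGCTGGAGTGCA. Of 254399 transcripts of the reference annotation, 2.785% held the first, 3.555% the second and 0.3715% both. Of the 11767 leading transcripts of tested mRNAs, 5.838%, 6.212% and 1.53% did. Sequence and classes are those of the reference (GRCh37, the hg19 assembly, with GENCODE v44 lifted to it).

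The ADAR libraries were shallow. The files give no fragment counts, but low values rise in steps of 1 fragment, and these steps put the ADAR libraries at about 1.89 to 2.26 M (mega) fragments, input set 1 at 20.4 to 22.5 M and the other fRIP libraries at 5.25 to 57.6 M. In the 6 libraries, 84.3% to 86.4% of these values came out whole to within 0.15 of a step. Genes at low FPKM therefore rest on few fragments in ADAR fRIP. All 16 K562 markers passed the filter, whereas 2 of 9 markers of other cell types did and 4 were listed at 0 in all 6 libraries. Across genes, log2(FPKM + 1) correlated at 0.906 to 0.914 between ADAR libraries, at 0.975 to 0.986 between input libraries and at 0.753 to 0.782 between the groups, as Pearson coefficients.

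At the scale of the deposited values, more genes were called higher in ADAR fRIP than lower. Values below are differences of mean log2(FPKM + 1), ADAR fRIP minus input set 1, with standard errors (SE) from limma on 3 against 3 libraries and Benjamini-Hochberg adjusted p over all features tested, and a gene was called at an adjusted p under 0.05 and a difference beyond 1 in size. Of 19131 genes tested, 5511 (28.8%) were called higher in ADAR fRIP and 401 (2.1%) lower. The median difference was 0.28 over all genes, 0.08 over 11796 mRNAs, 0.83 over 3357 lncRNAs and 0.95 over 3083 pseudogenes. Of the mRNAs 2224 (18.9%) were called higher and 196 (1.66%) lower, and of the lncRNAs 1482 (44.1%) were called higher and 57 (1.7%) lower. A gene had to reach 1 FPKM in 3 of the 6 libraries, so genes that pass through the ADAR libraries alone had to be higher there. Among the 16201 genes with at least 1 FPKM in every input library, 3935 (24.3%) were called higher and 403 (2.49%) lower, and the medians were 0.03 over mRNAs, 0.56 over 2380 lncRNAs and 0.69 over 2125 pseudogenes. Centring each library on its median shifted every difference by -0.70 and left 3129 genes (16.4%) higher and 4153 (21.7%) lower, so the split between higher and lower genes depends on the scale of the libraries, and values after centring are given for named genes whose call against input they change. In bulk libraries, recovery from more cells and more recovery from each cell cannot be told apart. Against all 9 inputs, 6244 genes (32.6%) were called higher and 1032 (5.39%) lower.

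ADAR mRNA itself was recovered above input. It stood at 163, 138 and 131 FPKM in the ADAR libraries and at 53.3, 48.0 and 50.6 FPKM in input set 1. The groups did not overlap, as was the case for 42.5% of genes with ADAR fRIP above input and 15.4% with ADAR fRIP below it. The difference was 1.49 (SE 0.11, adjusted p = 4.59e-05), and 0.79 after centring, which is under the size needed for a call. The gene lies on the minus strand at chr1:154554171-154600489, and no 7SL-like match was found in its leading transcript of 6519 bases. An ADAR isoform annotated as a retained intron, ENST00000492630.1, rose from 2.99, 2.27 and 3.4 FPKM in input to 35.1, 29.4 and 23.8 FPKM in ADAR fRIP, a difference of 2.96. The main coding isoform, ENST00000368471.3, stood at 57.2, 75.3 and 70.2 FPKM against 36.9, 30.4 and 33.8 FPKM, a difference of 0.98 that was not called. Another coding isoform, ENST00000529168.1, was called higher at 2.13, and 2 other retained intron isoforms, ENST00000463920.1 and ENST00000534279.1, differed by -0.11 and 0.20 and were not called.

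The mRNAs recovered most strongly over input included carriers of inverted 7SL-like matches. MMACHC, which encodes a protein of vitamin B12 handling, stood at 198, 202 and 208 FPKM in ADAR fRIP and at 5.23, 5.72 and 4.28 FPKM in input, so that even the lowest ADAR library lay far above the highest input. Its difference was 5.07 (SE 0.13, adjusted p = 1.6e-06), and its nearest inverted matches were 493 bases apart. GATC, which encodes a subunit of the mitochondrial enzyme that makes glutaminyl-tRNA, stood at 266, 264 and 309.6 FPKM against 13.0, 14.1 and 13.9 FPKM, a difference of 4.26 (SE 0.11, adjusted p = 1.6e-06), with inverted matches 267 bases apart. In both mRNAs the 3 ADAR libraries lay close together and well clear of input. MED18, encoding a Mediator subunit, had antisense matches only and stood at 284, 215 and 233 FPKM against 12.2, 11.6 and 10.8 FPKM, a difference of 4.28. GTF2H2C, a copy of a TFIIH subunit gene whose reads may be shared with its near-identical copies, had sense matches only and a difference of 4.44. The readthrough gene CSNK2B-LY6G5B-1181 had matches in both orientations and rose from at most 0.235 FPKM in input to between 97.6 and 108 FPKM in ADAR fRIP, although it overlaps other genes whose fragments could be assigned to it. It passed the filter only through the ADAR libraries, so it could be tested only if it was higher there. The other 5 of the 10 mRNAs with the largest differences were NICN1 and MT-ND6, described below, ALG9, CR769776.1, at 4.06, and AC002472.1, which rests on few fragments. ALG9 was listed at or near 0 in input and also passed the filter only through the ADAR libraries. Coding isoforms of NICN1 and AC002472.1 held antisense matches only, and coding isoforms of ALG9, CR769776.1 and MT-ND6 held none.

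mRNAs with 7SL-like matches in both orientations were recovered with ADAR far more than mRNAs with matches in 1 orientation. The median difference was 0.02 over 10035 mRNAs with no match, 0.49 over 703 with sense matches only, 0.30 over 701 with antisense matches only and 1.44 over 328 with both. Of these classes 15.8%, 32.4%, 29.4% and 61.9% were called higher, beside 18.9% of all mRNAs. The single ADAR libraries gave medians of 1.47, 1.46 and 1.45 for the class with both, so the libraries differed from each other by much less than the classes. After centring the medians were -0.68, -0.21, -0.40 and 0.74, and 41.8% of the class with both was still called higher, beside 8.15% of all mRNAs. Of the 328 mRNAs 203 were called higher and 1 lower, TPT1, which encodes an abundant translationally controlled protein. It stood at 204, 176 and 184 FPKM in ADAR fRIP and at 685, 582 and 592 FPKM in input, a difference of -1.71, and its nearest inverted matches were 1946 bases apart.

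**Figure D1:**
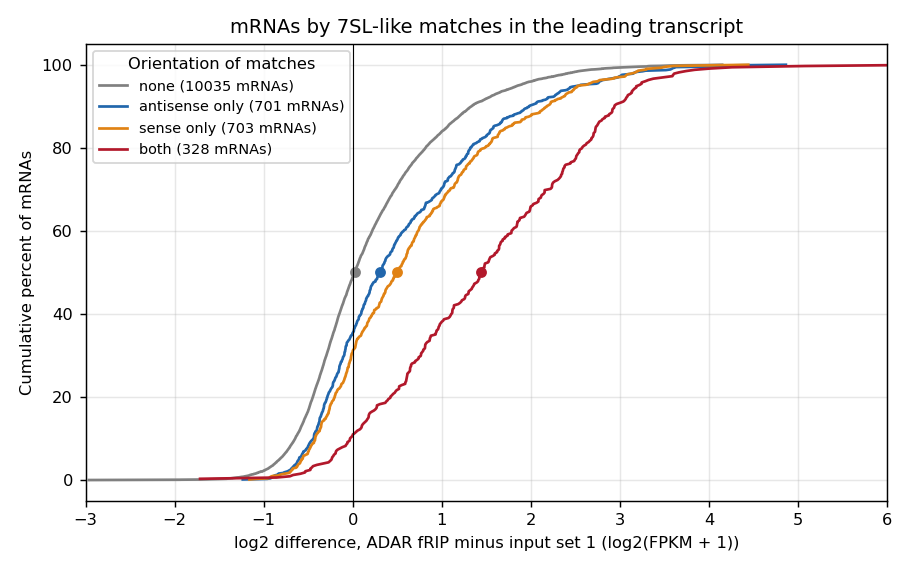
Cumulative percent of tested mRNAs (y axis) against the log2 difference between ADAR fRIP and input set 1 (x axis, log2(FPKM + 1)), 1 curve for each orientation class of 7SL-like matches in the leading transcript, with a dot at each median. The curve of the 328 mRNAs with both orientations lies to the right of the others, with its median at 1.44 against 0.02 for mRNAs with no match.

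The gap between these classes was present among scarce and abundant mRNAs and at more than 1 transcript length. In bins of input level taken from input sets 2 and 3, which the difference does not use, mRNAs with both orientations had a higher median than those with none in every bin. The medians were 1.98 against 0.44 below 3 FPKM, 1.62 against 0.07 from 3 to 10 FPKM, 1.35 against -0.00 from 10 to 30 FPKM, and 0.99 against -0.11 from 30 to 100 FPKM. At 100 FPKM and above they were 0.19 over 8 mRNAs and -0.43 over 819. Both classes fell with input level, and the gap between them narrowed above 10 FPKM. Leading transcripts with both were longer, with a median of 6424 bases against 2170 bases. Under 2000 bases only 2 mRNAs had both. Among leading transcripts of 2000 to 4000 bases the medians were 2.00 with both and 0.05 with none, and at 6000 bases or more they were 1.12 and 0.01. Length itself correlated with the difference at a Spearman rho of 0.07 across 11767 mRNAs, as the mean of the 3 ADAR libraries.

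At an equal number of matches, mRNAs with an inverted pair were recovered above mRNAs with a pair in the same orientation. Among mRNAs with exactly 2 matches, 132 had them in opposite orientation and a median of 1.43, and 180 had them in the same orientation and a median of 0.49. Of the first 80 (60.6%) were called higher, and of the second 62 (34.4%). Sense pairs and antisense pairs had medians of 0.46 over 101 mRNAs and 0.50 over 79. The median length of the leading transcripts was 5092 bases for opposite pairs and 5046 bases for pairs in the same orientation, so these classes were close in length. By number alone, the median rose from 0.37 with 1 match to 0.82 with 2, 1.03 with 3 and 1.53 with 4 or more.

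The distance between inverted matches went with the size of the difference. Over the 328 mRNAs, the median was 2.15 where the nearest opposite matches were under 300 bases apart, 1.68 from 300 to 600 bases, 1.82 from 600 to 1000 bases, 1.14 from 1000 to 2000 bases and 0.61 at 2000 bases or more. The shares called higher were 75.8% of 33, 74.7% of 79, 71.2% of 80, 54.9% of 91 and 26.7% of 45 mRNAs. The medians of the first 3 bins lay within each other's 25th to 75th percentiles, and the step down came beyond 1000 bases. Beyond 2000 bases the median was near the 0.49 of pairs in the same orientation. Restricting to mRNAs with exactly 2 matches gave 1.87 under 600 bases, 1.93 from 600 to 1000 bases, 0.99 from 1000 to 2000 bases and 0.56 beyond.

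**Figure D2:**
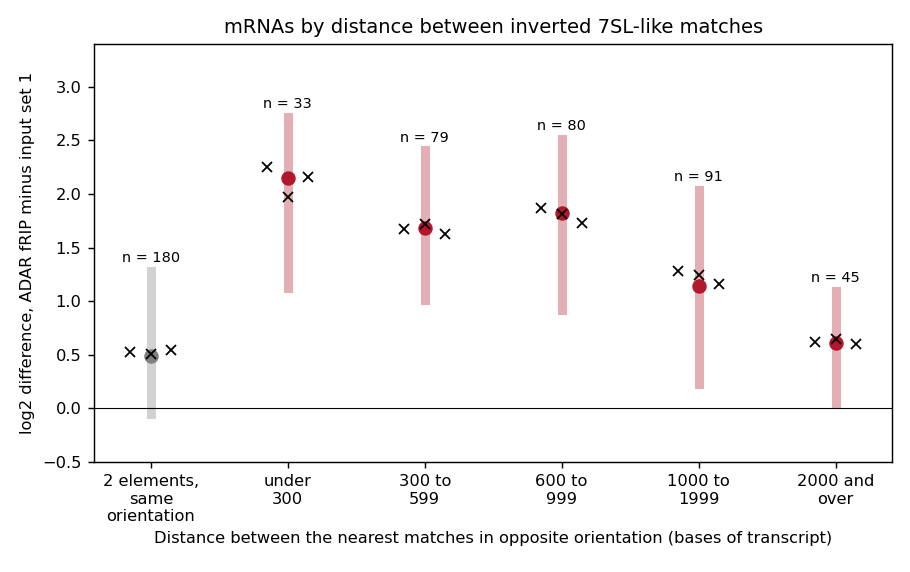
log2 difference between ADAR fRIP and input set 1 (y axis) for mRNAs grouped by the distance in transcript bases between their nearest 7SL-like matches in opposite orientation (x axis). Markers are medians, bars span the 25th to 75th percentile, crosses are the medians of the single ADAR libraries, and grey marks the 180 mRNAs with 2 matches in the same orientation. Medians lie between 1.68 and 2.15 up to 1000 bases and at 0.61 beyond 2000 bases.

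No library of another fRIP came near the ADAR libraries in the gap between mRNAs with both orientations and those with none. For every library, the median of mRNAs with both orientations minus the median of those with none was taken relative to the mean of the 9 inputs. The ADAR libraries stood between 1.38 and 1.43 (mean 1.40, SD 0.02, n = 3). The other 67 fRIP libraries stood between -0.35 and 0.36 with a median of -0.06, and HUR fRIP, with a mean of 0.32 (SD 0.04), and IMP1 fRIP, with 0.22 (SD 0.07), came next in order. Opposite pairs minus pairs in the same orientation gave 0.93 to 1.04 in the ADAR libraries and -0.30 to 0.27 in the other 67. The groups of libraries did not overlap in either measure. These libraries were also the shallowest of the series, and the part of depth in the gap was not tested.

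**Figure D3:**
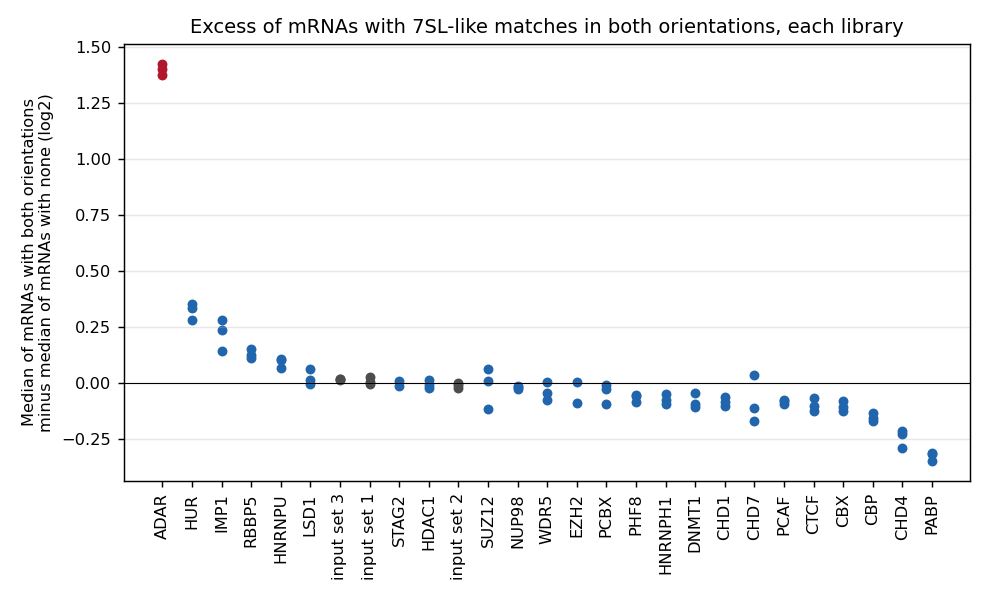
Each point is 1 library, grouped by target on the x axis, and the y axis gives the median log2 difference of mRNAs with 7SL-like matches in both orientations minus that of mRNAs with none, each library taken against the mean of the input libraries. The 3 ADAR libraries sit between 1.38 and 1.43, and the other 67 fRIP libraries sit between -0.35 and 0.36.

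Direct tests without input asked where ADAR fRIP differed from 3 other fRIPs, those of the RNA-binding proteins HNRNPH1, HNRNPU and HUR, and the 3 comparisons share the ADAR libraries. Of 21881 genes, 5059 (23.1%) were called higher in ADAR fRIP than in HNRNPH1 fRIP and 3447 (15.8%) lower, 4711 (21.5%) higher and 1523 (6.96%) lower than in HNRNPU fRIP, and 6336 (29%) higher and 1486 (6.79%) lower than in HUR fRIP. The split again moved with centring, to 3714 (17%) and 4984 (22.8%), 3220 (14.7%) and 3748 (17.1%), and 3149 (14.4%) and 5181 (23.7%). The 328 mRNAs with both orientations had medians of 1.44, 1.35 and 1.26 in the 3 comparisons, with 62.5%, 60.1% and 59.5% called higher. With centring their medians were 1.14, 0.93 and 0.52, and 172, 155 and 114 of them were called higher. mRNAs with no match had medians of 0.06, 0.09 and 0.30 and 18.6%, 15% and 24.0% called higher. Their medians with centring were -0.24, -0.33 and -0.44, with 1203, 838 and 879 of 10016 called higher. MMACHC was higher in ADAR fRIP by 3.95, 4.21 and 4.61 than in HNRNPH1, HNRNPU and HUR fRIP, and GATC by 3.96, 3.75 and 3.58. The sources do not say which fRIPs were made side by side, so batch and target cannot be told apart in these comparisons.

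Of the 19047 genes also tested against input, 3146 were called higher in ADAR fRIP than in each of these fRIPs, and 210 lower. Among the same genes, 5020, 4676 and 6221 were called higher than in HNRNPH1, HNRNPU and HUR fRIP, and 2858, 1152 and 1365 lower. Genes tested only in the direct comparisons do not enter these counts, and no such count was made after centring. The genes with the largest differences each way were short or poorly annotated. Among those higher, RP11-368N21.4 stood at 812, 518 and 531 FPKM in ADAR fRIP and at 1.76, 1.34 and 1.5 FPKM in input, the pseudogene CTD-2542C24.9 of 127 bases at 217, 199 and 321 FPKM against 12, 14 and 0 FPKM, and the mitochondrial serine tRNA MT-TS2, of 59 bases, at 201399, 269913 and 208416 FPKM against 3348, 6863 and 7492 FPKM. Among those lower, RP11-298J23.9, of 68 bases, and CTB-79E8.3, of 192 bases, were listed at 0 in all 3 ADAR libraries, and AC034102.1 at or near 0.

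mRNAs long known for edited Alu elements in their 3′ UTR were strongly recovered. Of the 14 measured, 12 were called higher than input and none lower, with a median of 2.15 beside 0.08 for all mRNAs and 18.9% of mRNAs called higher. After centring the median was 1.45 and 10 were called, beside 8.15% of mRNAs. NICN1, which encodes the nuclear protein nicolin, stood at 179.8, 184 and 133 FPKM in ADAR fRIP and at 8.47, 8.87 and 9 FPKM in input, a difference of 4.08 (SE 0.15, adjusted p = 2.7e-06). XIAP, an inhibitor of caspases, stood at 177, 184 and 180.0 FPKM against 26.1, 27.1 and 26.3 FPKM, a difference of 2.72 (SE 0.09, adjusted p = 2.11e-06), with inverted matches 248 bases apart. The libraries of both groups lay within a few FPKM of each other for XIAP and did not overlap for either mRNA. MDM4, an inhibitor of p53, stood at 499, 610.3 and 576 FPKM against 92.4, 101 and 100 FPKM, a difference of 2.51 (SE 0.11, adjusted p = 4.62e-06). LIN28A, which encodes an RNA-binding protein that blocks let-7 maturation, was scarce in input at 0.888, 0.947 and 0.846 FPKM and stood at 10.0, 9.69 and 9.80 FPKM in ADAR fRIP, a difference of 2.52. It passed the filter only through the ADAR libraries, so it could be tested only if it was higher there, and it is 1 of the 12.

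Most of the other members were also called. The p53 ligase MDM2 differed by 1.55, the proteasome subunit PSMB2 by 2.35, METTL7A by 2.07, the junction protein F11R by 1.88 and the purine enzyme PAICS by 1.45. MDM2 and PAICS were the members that lost their call after centring, at 0.85 and 0.75. CTSS, encoding the protease cathepsin S, stood at 54.3, 27.6 and 13.9 FPKM in ADAR fRIP and at 33.9, 13.0 and 12.1 FPKM in input, and its difference of 0.63 was not called (adjusted p = 0.387). ARHGAP26 stood at 5.98, 11.7 and 1.28 FPKM against 5.66, 3.65 and 2.84 FPKM, and its difference of 0.26 was not called (adjusted p = 0.757). In both the groups overlapped, and in both the leading transcript was a short isoform, of 626 and 564 bases, with no 7SL-like match. A coding isoform of CTSS with both orientations, ENST00000368985.3, stood at 54.3, 21.08 and 11.6 FPKM in ADAR fRIP and at 8.75, 2.64 and 2.81 FPKM in input, a difference of 2.28 that was called. Its isoforms with no match, the coding ENST00000448301.2 and the retained intron ENST00000480760.1, were called lower, at -2.87 and -2.44. Against HNRNPH1, HNRNPU and HUR fRIP, 13, 12 and 12 of the 14 were called higher, beside 23.1%, 21.5% and 29% of genes. With centring these were 13, 9 and 6, beside 17%, 14.7% and 14.4% of genes.

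**Figure D4:**
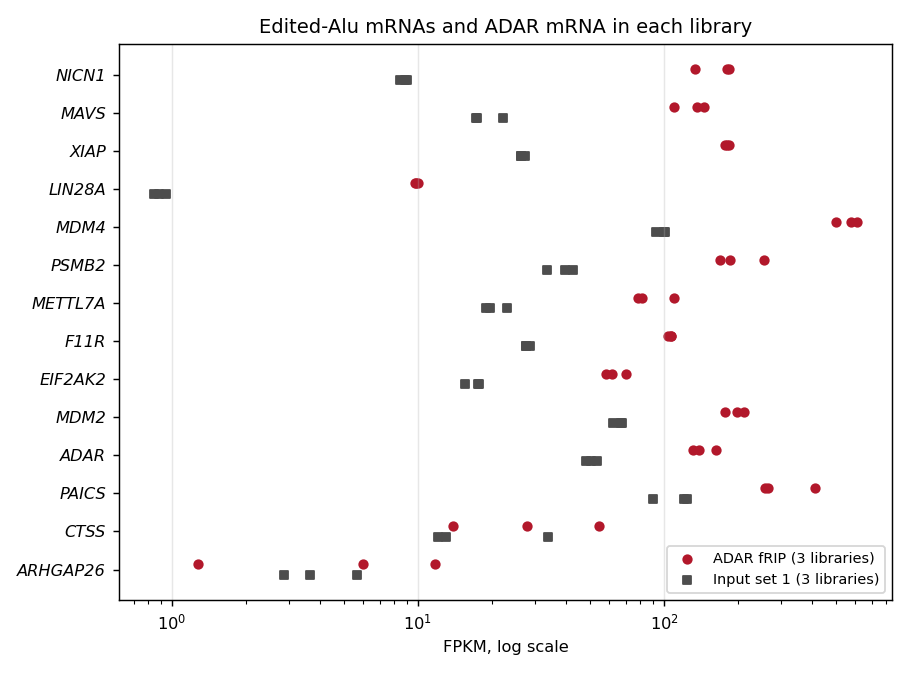
FPKM on a log axis (x) of 13 of the 14 edited-Alu mRNAs and of ADAR mRNA (y), with a circle for each ADAR fRIP library and a square for each library of input set 1. The groups overlap for CTSS and ARHGAP26 and are apart for the other mRNAs shown.

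Genes that sense double-stranded RNA were recovered unevenly. The adaptor MAVS, which relays the signal at mitochondria, and EIF2AK2 also belong to the edited-Alu mRNAs. MAVS mRNA, with inverted matches 445 bases apart, stood at 146, 136 and 109 FPKM against 22.1, 17.2 and 17.4 FPKM, a difference of 2.72. The kinase PKR, which double-stranded RNA activates, is encoded by EIF2AK2, whose mRNA stood at 70.3, 61.6 and 58.3 FPKM against 15.5, 17.6 and 17.8 FPKM, a difference of 1.84. The helicase RIG-I is encoded by DDX58, which had no match in its leading transcript and stood at 19.4, 19.3 and 15.1 FPKM against 1.56, 1.19 and 1.24 FPKM, a difference of 3.02. All 3 were clear of input in every library. Of the 17 tested genes for double-stranded RNA sensing and interferon, 3 were called higher and none lower, a share near the 18.9% of all mRNAs called higher, with a median of 0.26, and the third was IRF7, an interferon regulatory factor, at 1.05. Of 16 genes for double-stranded RNA-binding proteins 2 were called higher, EIF2AK2 and PRKRA, and none lower, beside the same 18.9%, with a median of -0.17. PRKRA, which encodes an activator of PKR, differed by 1.55 and lost its call after centring, at 0.85, as did IRF7, at 0.35. TARBP2, encoding a Dicer partner, differed by -0.66, which was not called, and by -1.37 after centring, which was.

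Recoding targets did not stand apart as a group. Of 12 tested mRNAs in which ADAR enzymes edit codons, 2 were called higher and none lower, beside 18.9% of all mRNAs called higher, with a median of 0.17. NEIL1, a DNA glycosylase, stood at 129.9, 149.9 and 95.4 FPKM against 16.9, 15.5 and 17.0 FPKM, a difference of 2.83 (SE 0.17, adjusted p = 1.57e-05). Most of this was retained intron isoforms, which made up 94.6%, 96.9% and 95.3% of the summed retained intron and coding isoforms in ADAR fRIP and 84.6%, 85.4% and 90.0% in input. CDK13, a cyclin-dependent kinase, differed by 1.62, and 0.92 after centring. AZIN1, an inhibitor of antizyme, stood at 54.6, 39.8 and 63.3 FPKM against 69.9, 62.1 and 64.6 FPKM, overlapped input and differed by -0.34. The filamin mRNA FLNA differed by -0.56, COPA by -0.11, CYFIP2 by 0.12, COG3 by 0.56, BLCAP by 0.34, GLI1 by 1.04, IGFBP7 by -0.37 and TMEM63B by -0.31, and none of these was called. After centring, AZIN1, FLNA, IGFBP7 and TMEM63B were called lower, at -1.04, -1.26, -1.07 and -1.01, and CDK13 was no longer called.

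Genes of the ADAR family, which act on mRNA or on tRNA, included ADAR and 2 others that were called, 3 of 6 beside 28.8% of all genes. ADAT1 differed by 1.54, or 0.84 and no longer called after centring, and ADAT3, which stood at 5.74, 16.0 and 18.6 FPKM against 2.00, 1.56 and 1.26 FPKM, by 2.34. ADAT2 differed by 0.08, ADARB1 by 0.26 and ADARB2 by 0.71, none of which was called. ADARB1 varied from 2.75 to 15.8 FPKM among ADAR libraries and overlapped input.

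Isoforms of the same gene differed by whether they held the inverted matches. Of 56550 isoforms tested, 12584 (22.3%) were called higher in ADAR fRIP and 4043 (7.15%) lower, and after centring 9272 (16.4%) and 8445 (14.9%). In 509 genes with both kinds of isoform, isoforms with both orientations exceeded those with none by a median of 1.07, and 358 genes had a positive difference. Among isoforms with at least 1 FPKM in every input library, the median was 1.38 over 387 genes, of which 290 had a positive difference. Over the 509 genes the single ADAR libraries gave 1.08, 1.10 and 1.00. Among coding isoforms alone the median was 0.91 over 267 genes. Isoforms with sense matches only exceeded those with none by 0.33 over 1531 genes, and isoforms with antisense matches only did so by 0.37 over 1754 genes.

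In CDK13 the isoform with both orientations had the largest difference. This coding isoform, ENST00000484589.1, stood at 41.4, 32.0 and 42.9 FPKM in ADAR fRIP and at 5.65, 4.05 and 5.58 FPKM in input, a difference of 2.71. Coding isoforms with no match, ENST00000340829.5 and ENST00000181839.4, differed by 0.92 and 0.95, under the size needed for a call. A retained intron isoform with no match, ENST00000465643.1, was called higher at 1.10, and ENST00000478563.1, also with no match, differed by 0.26 and was not called. MDM4 was less clear. Its isoform with both orientations ENST00000367182.3 rose from 28.7, 34.6 and 33.5 FPKM to 357, 423 and 397 FPKM, a difference of 3.56. Another MDM4 isoform with both orientations, ENST00000391947.2, was listed near 0 in the ADAR libraries and at 15.6, 22 and 18.7 FPKM in input, and one more, ENST00000367183.3, differed by 0.88 and was not called. MDM4 isoforms with no match were called higher as well, ENST00000470908.1 by 3.76 (listed near 0 in input), ENST00000470797.1 by 2.12, ENST00000367180.1 by 1.97 and ENST00000462012.1 by 1.93. Isoforms of 1 gene share sequence, so the split of fragments between them is uncertain at this depth. In XIAP, 3 isoforms with both orientations were called higher, among them ENST00000371199.3, which rose from 13.6, 10.5 and 13.6 FPKM to 97.1, 142 and 134 FPKM, a difference of 3.20. Of its isoforms with no match, ENST00000430625.1 was called lower at -2.44 and ENST00000481776.1 higher at 1.33.

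Isoforms annotated as retained introns were recovered above coding isoforms. The median difference was -0.31 over 23462 coding isoforms and 0.30 over 12102 retained intron isoforms, and 13.2% and 25.9% were called higher. With both orientations the medians were 1.23 over 509 coding isoforms and 2.47 over 138 retained intron isoforms, of which 80.4% were called higher. With no match they were -0.36 and 0.25. Isoforms too could pass the filter through the ADAR libraries alone. Of the 41321 isoforms with at least 1 FPKM in every input library, 7131 (17.3%) were called higher and 4052 (9.81%) lower, and the medians were -0.46 over 18645 coding and 0.14 over 8725 retained intron isoforms. With both orientations they were 1.15 and 2.51, and with none -0.52 and 0.10. So the 2 annotated types differed at equal match class, and the match classes differed within each type.

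**Figure D5:**
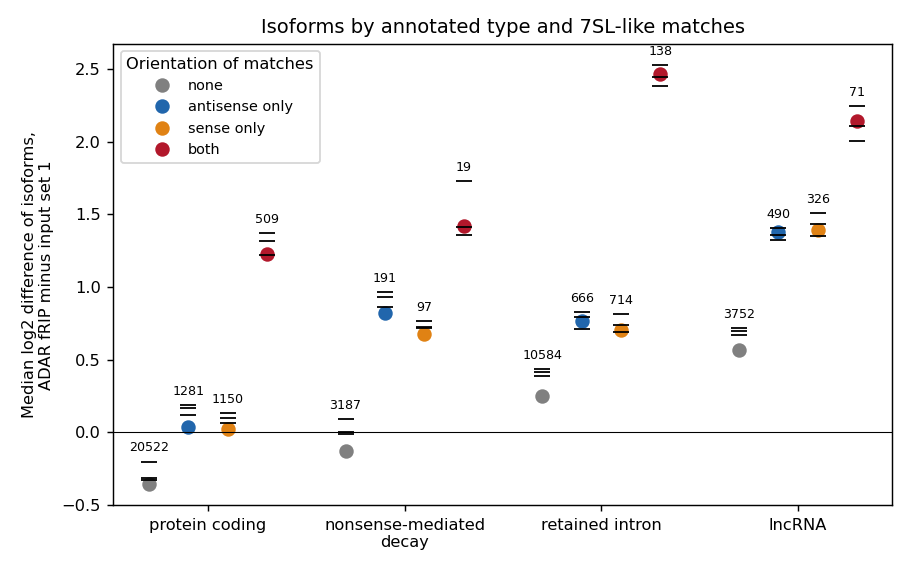
Median log2 difference of isoforms between ADAR fRIP and input set 1 (y axis) by annotated isoform type (x axis) and orientation of 7SL-like matches (colour). Dots are medians of the fitted differences, black dashes are the medians of the single ADAR libraries and the numbers give isoforms. Isoforms with both orientations lie highest in each type, at 1.23 for coding and 2.47 for retained intron isoforms.

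The balance of isoforms was also taken within each gene, as a difference of log2(FPKM + 1), which keeps some dependence on library scale at low FPKM. In 5115 genes, the retained intron isoforms were compared with the coding isoforms of the same gene, and the balance was called shifted towards the retained intron in 1787 genes (34.9%) and away from it in 158 (3.09%). Among the 4337 genes with at least 1 FPKM of both types in every input library these were 1560 (36%) and 141 (3.25%). The median share of retained intron isoforms was 39.5%, 40.6% and 37.5% in the ADAR libraries and 25.0%, 23.3% and 23.5% in input. The balance shifted by a median of 2.04 in 119 genes whose tested retained intron isoforms held both orientations, with 71.4% called, by 1.08 in 1073 genes with 1 orientation, and by 0.69 in 3716 genes with none, with 31.7% called. The ribosomal protein gene RPL36A had retained intron shares of 65.4%, 73.8% and 68.7% in ADAR fRIP and 2.88%, 3.39% and 4.23% in input, a shift of 5.88. The complement regulator CD46 had shares of 97.9%, 96.4% and 97.2% against 40.1%, 36.9% and 36.7%, a shift of 5.71. KRTCAP2, SRP68 and HAUS1 shifted by 6.87, 6.48 and 5.82, with 1 or more ADAR libraries in which the coding isoforms were listed near 0.

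Some genes shifted the other way. DNAJC24, ZNF621, HOOK3, CTSS and POLR1A had the most negative balances among called genes, at -5.02, -4.69, -3.89, -3.58 and -3.50. The coding isoforms of DNAJC24 stood at 4.91, 5.80 and 5.55 FPKM in input and at 194, 171 and 237 FPKM in ADAR fRIP, while its retained intron isoforms stood at 1.88, 1.16 and 1.25 FPKM against 1.33, 1.63 and 1.59 FPKM. Of the 6 edited-Alu mRNAs with both types, 1 was shifted towards and 3 away from the retained intron, beside 34.9% and 3.09% of all genes compared, with NICN1 among the latter at -2.39. SR protein and CLK kinase genes, many of which have retained introns, had a median of 0.31 over 13 genes with 1 called, below the 0.76 of all genes.

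lncRNAs with inverted matches were recovered above those with no match. The median difference was 0.69 over 2709 lncRNAs with no match, 1.58 over 244 with sense matches only, 1.43 over 345 with antisense matches only and 1.90 over 51 with both, and 39.7%, 61.5%, 62.9% and 76.5% of them were called higher. At equal input level the order of the classes with matches was not steady. Below 3 FPKM in input sets 2 and 3, the medians were 2.35 over 31 lncRNAs with both, at most 1.64 with matches in 1 orientation and 0.88 with none. From 3 to 10 FPKM they were 1.10 over 14 lncRNAs with both, 1.74 with sense only, 1.28 with antisense only and 0.41 with none, so those with both lay below those with matches in 1 orientation. The lncRNAs with the largest differences were CTD-3222D19.10 at 6.28, RP11-325K4.3 at 5.93, RP11-325K4.2 at 5.60, CTD-2349P21.10 at 5.34 and RP11-388M20.1 at 5.28. CTD-2349P21.10 stood at 723, 555 and 643 FPKM in ADAR fRIP and at 16.8, 12.2 and 15.5 FPKM in input. RP11-325K4.3 and RP11-325K4.2 overlap on chromosome 16, and their fragments may not be separable. Of the 5 with the most negative differences, RP11-298J23.9 and RP11-109M17.2, of 68 and 110 bases, were listed at 0 in the ADAR libraries, and RP11-9M16.2, GLYCTK-AS1 and RP4-816N1.7 rest on few fragments, and the calls of the first pair were lost in 5 and 3 of the 6 fits that left out 1 library.

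Among well-known nuclear and regulatory lncRNAs, 6 of 16 were called higher and 1 lower, beside 44.1% and 1.7% of all lncRNAs. OIP5-AS1, which has matches in both orientations and is known to bind the protein HUR, stood at 503, 534 and 526 FPKM in ADAR fRIP and at 72.5, 75.1 and 74.4 FPKM in input, a difference of 2.80 (SE 0.09, adjusted p = 1.99e-06). It was also higher than in HUR fRIP, by 1.93. FTX, a transcript of the X inactivation center, stood at 244, 206 and 302 FPKM against 22.5, 26.0 and 26.4 FPKM, a difference of 3.26, and its neighbor JPX differed by 2.03. The telomerase RNA TERC differed by 1.92, or by 0.65 and not called against all 9 inputs, DLEU2 by 1.38 and MIAT by 1.12, and the last pair lost their call after centring, at 0.68 and 0.42, and MIAT also in 3 of the 6 fits that left out 1 library. MALAT1, the abundant nuclear lncRNA, stood at 3092, 4100.0 and 3214 FPKM against 5083, 5471 and 5547 FPKM, a difference of -0.64 that was not called, and -1.34 after centring, which was. NEAT1, the scaffold of paraspeckles, overlapped input and differed by 0.41, GAS5 differed by -0.60 (-1.30 and called after centring), and EPB41L4A-AS1 was called lower at -1.23, a call that was lost in 5 of the 6 fits that left out 1 library.

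Ribosomal protein mRNAs were lower in ADAR fRIP than in input. Of 83 ribosomal protein mRNAs 54 were called lower than input and 1 higher, beside 2.1% of genes called lower, with a median of -1.09, and 75 were called lower after centring, beside 21.7% of genes. Their median input level was 511 FPKM. All 862 mRNAs at 100 FPKM and above in input sets 2 and 3 had a median of -0.42, with 11.4% called lower, and 57.5% with centring. RPL12 stood at 125, 127 and 128 FPKM in ADAR fRIP and at 489, 494 and 477 FPKM in input, a difference of -1.93 (SE 0.08, adjusted p = 4.62e-06). RPL39 stood at 94.0, 80.3 and 94.1 FPKM against 318, 309 and 296 FPKM, a difference of -1.77. Neither overlapped, and RPL37, RPS18 and RPL11 differed by -1.64, -1.42 and -0.99, of which RPL11 was called only after centring, at -1.69. The medians were 0.77 against HNRNPH1 fRIP, 0.67 against HUR fRIP and -0.62 against HNRNPU fRIP, and after centring 0.48, -0.07 and -1.05. In 64 ribosomal protein genes the balance shifted towards retained intron isoforms by a median of 1.43, with 45 called and 1 the other way, beside 34.9% and 3.09% of all genes compared. Nuclear-encoded respiratory chain mRNAs had a median of -0.56 over 77, with 8 called lower and 5 higher, beside 1.66% and 18.9% of all mRNAs. With centring 53 were called lower, beside 26.8% of all mRNAs. Their median input level was 70.7 FPKM, and 34.3% of all mRNAs at 30 to 100 FPKM in input sets 2 and 3 were called lower with centring.

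Besides the ribosomal protein mRNAs RPL12, RPL22L1, RPL39 and RPL37 and TPT1, the 10 mRNAs with the most negative differences were BCL2L2-PABPN1 at -2.73, HIST3H2BB at -2.38, BLOC1S5-TXNDC5 at -2.16, DGCR6L at -1.96 and SPRR2D at -1.73. SPRR2D was no longer called against all 9 inputs, at -0.91, or in 5 of the 6 fits that left out 1 library, and BLOC1S5-TXNDC5 was not called in 3 of these 6. BCL2L2-PABPN1 and BLOC1S5-TXNDC5 are readthrough genes that share exons with their neighbors, and DGCR6L has a near-identical copy. RPL22L1, at -1.80, varied from 2.92 to 16.0 FPKM among ADAR libraries and lost its call in 3 of the 6.

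RNA encoded by mitochondrial DNA was enriched in ADAR fRIP. All 13 mitochondrial mRNAs were called higher, beside 18.9% of all mRNAs, with differences from 1.64 for MT-CO3 (0.93 after centring, no longer called) to 4.15 for MT-ND6 and a median of 2.87. MT-ND6, the only one of these mRNAs that is encoded by the light strand of mitochondrial DNA, stood at 1815, 2628 and 2970.2 FPKM in ADAR fRIP and at 145, 137 and 126 FPKM in input (SE 0.19, adjusted p = 5.33e-06). MT-ND3 and MT-ND5 followed at 4.01 and 3.81, and the SEs of 0.19 to 0.22 do not separate MT-ND6 from them. Of 13 mitochondrial tRNAs 11 were called higher, beside 28.8% of all genes, with a median of 4.28, and these genes are short, so 1 fragment adds many FPKM. All 13 mRNAs were also called higher than in HNRNPH1, HNRNPU and HUR fRIP, with medians of 1.81, 1.82 and 4.71, beside 23.1%, 21.5% and 29% of genes called higher. With centring 12, 12 and 13 were called. Whether these RNAs came with ADAR or with the beads was not tested.

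Zinc finger genes, of which many lie in clusters rich in repeats, differed by the matches they hold. Of 444 tested, 171 were called higher and 2 lower, beside 28.8% and 2.1% of all genes, with a median of 0.68, or -0.03 after centring. The median was 0.36 over 308 with no match, 1.56 over 48 with sense matches only, 1.17 over 45 with antisense matches only and 1.93 over 34 with both, of which 26 were called higher. ZNF83 stood at 529.8, 465 and 399 FPKM against 69.5, 56.8 and 61.1 FPKM, a difference of 2.87, with antisense matches only.

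DNA repair mRNAs were mixed, with 5 of 25 called higher and none lower, near the 18.9% of all mRNAs called higher, and a median of 0.40. FANCA, of the Fanconi anemia core complex, stood at 660.1, 578 and 744 FPKM against 111, 117 and 116 FPKM, a difference of 2.51, although its leading transcript of 5452 bases held no match. PALB2, the partner of BRCA2, differed by 2.29, XRCC2 by 2.13, RAD51D by 1.75 and the mismatch repair gene PMS2, which has close pseudogenes, by 1.06, which lost its call after centring, at 0.36.

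The 7SL RNA itself was not enriched. RN7SL1 stood at 172, 192 and 179 FPKM in ADAR fRIP and at 203, 147 and 163 FPKM in input, so the groups overlapped, and its difference of 0.10 was not called. Among 6 mRNAs of the signal recognition particle proteins, SRP68 differed by 2.42 and SRP54 by 2.38, and both were called, beside 18.9% of all mRNAs. SRP9 differed by 0.94, and SRP14 and SRP19 by -0.58 and -0.60, which centring took to -1.28 and -1.30 and to calls. Of the other RNAs made by polymerase III, RMRP differed by 1.14 and was called (0.92 and not called against all 9 inputs), and RPPH1 by -0.90, and after centring, at 0.43 and -1.61, RPPH1 was called and RMRP was not. Of 14 snoRNAs and Cajal body RNAs, 7 were called higher and none lower, beside 28.8% and 2.1% of all genes, with a median of 1.22. SCARNA2 stood at 6025, 4216 and 3473 FPKM against 319, 247 and 247 FPKM, a difference of 4.04, and SCARNA10 and SCARNA9 differed by 3.45 and 2.70. Replication-dependent histone genes had a median of 0.01 over 61, with 9 called higher and 2 lower, and snoRNA host genes had a median of -0.37 over 14, with 2 called higher and 3 lower, beside the same 28.8% and 2.1%.

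Matches in the gene body, introns included, went with the difference even where the leading transcript held none. The density of matches over the whole gene correlated with the difference at a Spearman rho of 0.36 (SD 0.01 over the 3 ADAR libraries, 11796 mRNAs), beside 0.19 for the number of matches in the leading transcript, 0.00 for exon number, -0.04 for GC content and -0.25 for input level in sets 2 and 3. These are correlations across genes, which are not independent replicates. Among mRNAs with no match in the leading transcript, the median rose from -0.32 over 1535 genes with no match in the gene body to -0.21 up to 1 match per 10 kb, -0.06 from 1 to 2, 0.16 from 2 to 3, 0.39 from 3 to 5 and 0.67 over 844 genes above 5 per 10 kb. Reads were 31 bases long, and how reads that match many copies of a repeat were assigned when these FPKM were made is not given in the sources used here, and their part in these values was not tested.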

How the data were processed

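K562 RNA was sequenced after fRIP and from input. The authors aligned reads of 31 bases to hg19 with TopHat and quantified GENCODE v18. The values used are the authors' FPKM of each gene and isoform in each library. Per the submitters' processing notes, CASAVA 1.4, TopHat, Cuffdiff and Cuffnorm were used. Strand use and how multiply mapped reads entered these FPKM are not stated in the sources used. The deposited comparison table holds the authors' fold changes, p-values and q-values and was not used.

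Groups came from the labels. Genes and isoforms reaching 1 FPKM in 3 or more of the compared libraries were kept, log2(FPKM + 1) was taken, and limma 3.58.1 (R 4.3.3) with an intensity trend was fitted, with Benjamini-Hochberg adjustment over all features tested. A difference on this scale understates the change of low genes. A call required an adjusted p below 0.05 with a difference beyond 1 in size. ADAR fRIP was compared with HNRNPH1, HNRNPU and HUR fRIP in a single fit of 12 libraries. The isoform balance was log2(FPKM + 1) of a gene's summed retained intron isoforms minus that of its coding isoforms. Coordinates, types and sequences came from GENCODE v44 lifted to GRCh37, matched by identifier without version (46055 of 48453 genes and 172143 of 185661 isoforms). Of the leading transcripts 40.7% had the same version in both annotations. Tables were handled in Python 3.11.15 with pandas 2.3.3, numpy 2.4.6, scipy 1.17.1 and matplotlib 3.10.9. The fit was tested on simulated data. Some list members and sequence stretches are not reported here.

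The members and gene lists were chosen with earlier results of these data known. Named genes were ADAR, measured members of the ADAR family, recoding and edited-Alu lists, members of the other lists with the highest mean FPKM (up to 4 each) and, at a mean of at least 5 FPKM and with no overlap between groups, the 10 mRNAs and 5 lncRNAs with the largest differences each way among genes called both with and without centring. The isoform balance was named by the 5 largest called shifts each way. The direct comparisons were named by the 3 largest differences each way called against all 3 fRIPs, among genes also tested against input. List members outside this rule (DDX58, IRF7, PRKRA, TARBP2, PALB2, RAD51D, PMS2, SRP14, SRP19, NEAT1, FTX, JPX, TERC, DLEU2, MIAT and EPB41L4A-AS1), and the mitochondrial mRNAs and isoforms of CDK13, were named after their values were seen.

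The alternatives were centring, pseudocounts of 0.1 and 0.5 FPKM, other filters on low values, a replicate block, each replicate left out, all 9 inputs, all 79 libraries in 1 fit, and looser (1 shared 14-mer) and stricter (10) matches. Deviations from group means of same-numbered ADAR and input libraries correlated at 0.24, -0.044 and 0.125, and the labels do not tie the numbers, so they were not taken to pair libraries.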

Additional observations from a re-analysis of the deposited data

How the results depend on the processing

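Counts of calls moved with the setting. Centring gave 3129 genes higher and 4153 lower than input, 8445 isoforms lower, 3748 genes lower than in HNRNPU fRIP, and 3149 higher and 5181 lower than in HUR fRIP. All 9 inputs gave 1032 genes and 7711 isoforms lower, and all 79 libraries in 1 fit gave 6651 isoforms lower. A mean of at least 5 FPKM, which tests fewer features, gave 7907 isoforms higher and 1551 lower, 75 balances lower, and 2230 and 767 genes lower than in HNRNPH1 and HNRNPU fRIP. With 1 library left out, genes lower ranged from 310 to 707 and isoforms lower from 2763 to 6197, both highest without ADAR replicate 3, and balances lower from 100, without input replicate 2, to 207. At least 1 FPKM in every input library gave 7131 isoforms higher. All 9 inputs ended the calls of SPRR2D (-0.91), GLYCTK-AS1 (-1.60), RMRP (0.92) and TERC (0.65). The cause was not tested.

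The excess of mRNAs with both orientations over those with none, 1.42 as reported, was 1.10 with genes above 0 in any library, 1.40 with all 9 inputs, 1.45 with at least 1 FPKM in every input, 1.49 at a mean of at least 5 FPKM, 1.58 and 1.53 with pseudocounts of 0.1 and 0.5 FPKM, 1.80 for leading transcripts with the same version, and 1.41 to 1.45 with 1 library left out. The median of mRNAs with no match turned to -0.023 with at least 1 FPKM in every input, -0.68 with centring and -0.0094 at a mean of at least 5 FPKM.

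Centring turned the medians of sensing genes (-0.44), the 16 nuclear and regulatory lncRNAs (-0.39), 7SL RNA (-0.61), signal recognition particle mRNAs (-0.16), zinc finger genes (-0.026) and DNA repair (-0.30), and the differences of ADARB1 (-0.44), ADAT2 (-0.62), ARHGAP26 (-0.45), BLCAP (-0.36), COG3 (-0.14), CTSS (-0.074), CYFIP2 (-0.58), NEAT1 (-0.29) and RN7SL1 (-0.61). All 9 inputs turned COPA to 0.022 and RN7SL1 to -0.16. The 3 other polymerase III RNAs had a median of 0.88. With at least 10 estimated fragments only 1 of them was left, at -0.90, and with transcripts of at least 200 bases 2 were left, with a median of -0.014. Leaving out 1 library gave ranges across 0 for RN7SL1 (-0.0064 to 0.22), SR protein and CLK genes (-0.25 to 0.026), recoding targets (-0.011 to 0.36), replication-dependent histones (-0.056 to 0.18), ADARB1 (-0.18 to 0.91), ARHGAP26 (-0.30 to 0.94), COPA (-0.28 to 0.12) and CYFIP2 (-0.34 to 0.61). Calls were lost for EPB41L4A-AS1 (-1.72 to -0.95 with 1 library left out), RP11-9M16.2 (-4.54 to -2.57) and SPRR2D (-2.36 to -1.14) in every such fit but that without ADAR replicate 2, for GLYCTK-AS1 (-3.39 to -1.64) without any single ADAR library, for BLOC1S5-TXNDC5 (-2.58 to -1.31) without any single input library, for RPL22L1 (-2.32 to -1.26) without ADAR replicate 2 or input replicate 2 or 3, for MIAT (0.82 to 1.28) without ADAR replicate 1 or input replicate 2 or 3, and for IRF7 (0.92 to 1.15) without ADAR replicate 3 or input replicate 2. The replicate block gave 5559 genes higher and 440 lower, and 1.42 for the excess. The filters by fragments, transcript length and input level, for genes and isoforms, and the version match were chosen after seeing the data. Depth limits genes of low FPKM, whose values in the ADAR libraries rest on few fragments.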

Other observations

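Globin mRNAs, which mark K562 as an erythroid line, differed between libraries within both groups. HBG2 stood at 141, 147 and 966 FPKM in the ADAR libraries and at 178, 901 and 944 FPKM in input set 1, and HBE1 at 138, 169 and 546 FPKM against 208, 645 and 636 FPKM. The transferrin receptor mRNA TFRC, another K562 marker, stood at 934, 996 and 1379.6 FPKM against 297, 304 and 303 FPKM, a difference of 1.85, and it was the only one of 16 markers called, beside 18.9% of mRNAs called higher. After centring 3 other markers were called lower, beside 26.8% of mRNAs. It holds no 7SL-like match in its leading transcript of 5012 bases.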
